A study of Bos taurus with 24 samples.

Results

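Long-chain fatty acids cross the inner mitochondrial membrane as esters of carnitine. The transcripts described here encode enzymes that make and break carnitine esters of long-chain, medium-chain or short-chain groups, and a transporter that brings carnitine into the cell. The 6 genes *CPT1A*, *CPT1B*, *CPT2*, *CRAT*, *CROT* and *SLC22A5* were taken by name. Each was represented by 1 transcript cluster (the set of probes that reports 1 gene) carrying that symbol alone, so that 6 of the 24997 clusters tested, which carry 18444 gene symbols, are described.

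The 24 arrays came from subcutaneous adipose tissue of 12 mature, non-pregnant crossbred beef cows, each biopsied once after 105 days of feed restriction, on the left side, and again after 49 days of ad libitum access to the same ration, on the right side. The 6 high gain and 6 low gain cows (H1 to H6 and L1 to L6) were the extremes of a larger herd for body weight gain during the ad libitum period, and the study notes that the high gain cows also ate more. No untreated group was sampled, and diet cannot be told apart from biopsy side, period, order of sampling or the RNA integrity, which the methods give as lower on average at restriction. Breed composition also differed between the gain groups.

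Carnitine palmitoyltransferase 1, on the outer mitochondrial membrane, transfers a long-chain acyl group from coenzyme A to carnitine and is the step that malonyl-CoA inhibits. A translocase carries the acylcarnitine across the inner membrane, where carnitine palmitoyltransferase 2 returns the acyl group to coenzyme A for beta-oxidation. White adipose tissue stores fatty acids when feed is plentiful and releases them during restriction, and its own rate of fatty acid oxidation is low beside that of muscle or liver.

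Values are log2 signals, on which a difference of 1 is a doubling. The median signal of an array ran from 8.26 to 8.34 at restriction but from 7.83 to 7.94 under ad libitum feeding, and over all clusters the median change from restriction to ad libitum feeding was -0.42 (high gain) and -0.43 (low gain). Each change of a member with diet is therefore given as deposited and again after subtracting the median of each array (centred). A change of any other single gene is as deposited unless it is said to be centred. The 10 mature adipocyte markers measured had a mean log2 signal of 15.79 to 16.70 on every array, but single markers moved with diet. As deposited 2 rose and 2 fell in the high gain cows and 4 rose and 1 fell in the low gain cows, and after centring 6 rose and 1 fell, and 7 rose and none fell (centred medians 0.51 and 0.53). *AQP7*, a glycerol channel, changed by 1.09 and 0.67 as deposited and *LIPE*, the hormone-sensitive lipase, by -1.61 and -1.03, each called in both groups (limma). Centred, *AQP7* was still called in both groups (1.5 and 1.13). *LIPE* was then called in the high gain cows (-1.2, adjusted p 0.0133, limma) but not in the low gain cows (-0.58, adjusted p 0.0735). Precision was limited by 6 cows per group, each with 1 array per diet.

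From restriction to ad libitum feeding the members divided. *CPT1A*, *CPT1B*, *CROT* and *SLC22A5* fell and *CPT2* and *CRAT* rose in both gain groups on the deposited scale, with an adjusted p under 0.05 (limma with the cow as a block, Benjamini-Hochberg over all clusters, two-sided). In the high gain cows these 6 of 6 calls stood beside 60.4% of all clusters called, 7.36% as higher and 53.1% as lower, and in the low gain cows beside 60.5%, of which 6.28% were higher and 54.3% lower. A fall on the deposited scale was thus common among all clusters and a rise was not. After centring, the high gain cows still had 2 members called higher and 4 lower, where 35.3% of clusters were called, 18.8% as higher and 16.5% as lower, although the call of *CROT* among them was lost when any of 4 cows was left out. The low gain cows then had 2 higher and 3 lower, beside 31.7% (18.6% higher and 13.1% lower), and *CROT* was no longer called.

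The signals of the diets did not overlap for *CPT1A*, *CPT1B*, *SLC22A5* and *CPT2* among high gain cows, where 2.89% of clusters were higher and 27.4% lower without overlap. Among low gain cows this held for *CPT1A*, *CPT1B* and *SLC22A5*, beside 1.99% higher and 29% lower. After centring it held for *CPT1A*, *SLC22A5*, *CPT2* and *CRAT* (9.38% of clusters higher and 7% lower) and for *CPT1A*, *SLC22A5* and *CPT2* (8.99% and 6.05%), in the high and low gain cows respectively. The same sign in all 6 cows was shared by 6.3% (higher) and 45% (lower) of clusters in the high gain and by 4.66% and 44.8% in the low gain group, and after centring by 18.4% and 15.7%, and by 17.8% and 13.1%.

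**Figure D1:**
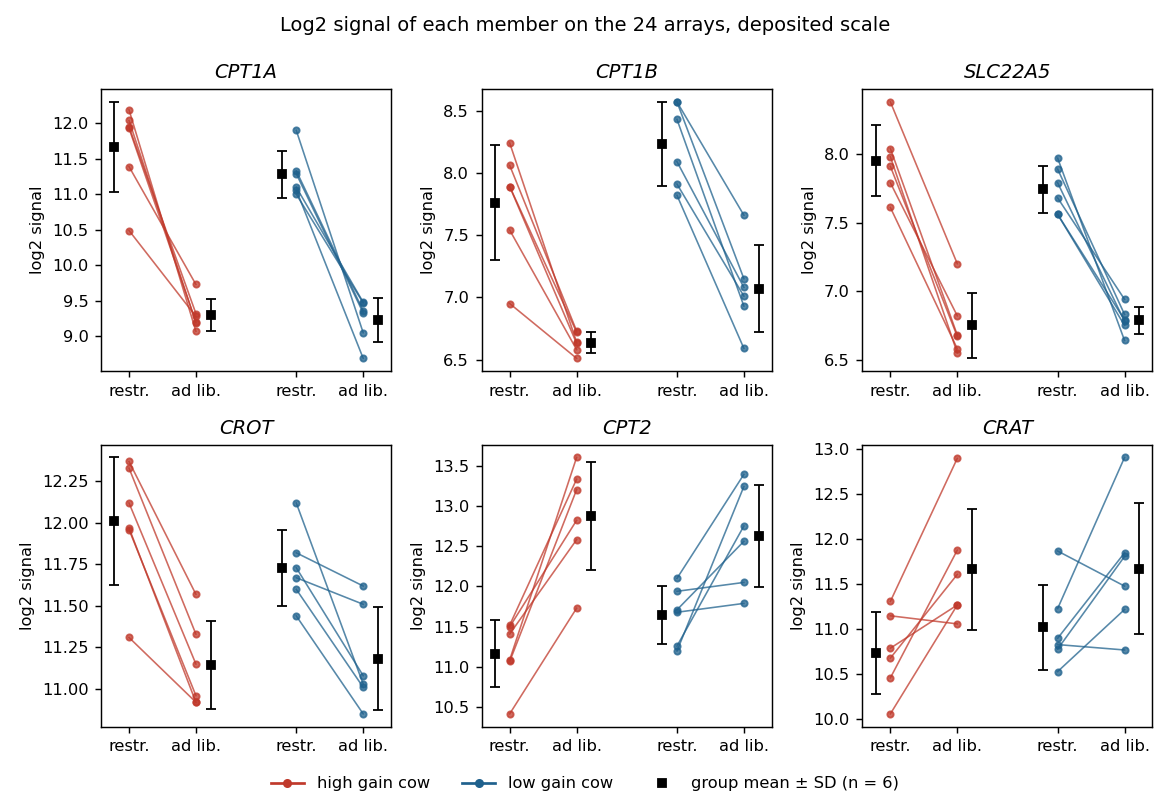
Log2 signal (deposited scale) of each member at restriction (restr.) and at ad libitum feeding (ad lib.), with a line for each cow and squares with bars for the group mean and SD (n = 6). Over the 12 cows *CPT1A* runs from 10.49 to 12.19 at restriction and from 8.69 to 9.73 at ad libitum feeding, whereas *CPT2* and *CRAT* run the other way in most cows.

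*CPT1A* encodes the isoform of the outer-membrane enzyme that predominates in liver and is also found in adipose tissue. In the high gain cows its log2 signal was 10.49 at the lowest, 11.94 at the median and 12.19 at the highest at restriction, and 9.07, 9.24 and 9.73 at ad libitum feeding. The corresponding values of the low gain cows were 11.00, 11.20 and 11.90, and 8.69, 9.34 and 9.48. All 12 cows were lower at ad libitum feeding and the diets did not overlap in either gain group. H2 had the lowest restriction value of its group and the smallest fall, and L5 the highest restriction value of its group. The level fell 5.16-fold in the high gain cows (log2 change -2.37, SE 0.25, adjusted p 0.000233) and 4.14-fold in the low gain cows (-2.05, SE 0.18, adjusted p 0.000181). Centred, the changes were -1.95 (adjusted p 0.00074) and -1.60 (adjusted p 0.000549), and the diets still did not overlap.

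*CPT1B* encodes the isoform of muscle and brown fat. Its log2 signal in the high gain cows was 6.95, 7.89 and 8.24 (lowest, median, highest) at restriction and 6.51, 6.64 and 6.73 at ad libitum feeding. Low gain cows had 7.82, 8.26 and 8.57, and 6.59, 7.05 and 7.66. The diets did not overlap in either group, and the high gain cows were close together at ad libitum feeding (6.64 ± 0.08, SD, n = 6). The level fell 2.18-fold in the high gain (log2 change -1.12, SE 0.15, adjusted p 0.00054) and 2.23-fold in the low gain cows (-1.16, SE 0.13, adjusted p 0.000256). After centring the change was -0.71 in both groups (adjusted p 0.00796 and 0.0037), and the diets then overlapped.

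Because *CPT1B* is the isoform of muscle and brown fat, markers of both were read beside it. The mean log2 signal of the 11 of 12 muscle markers measured was 7.21 to 7.83 at restriction and 6.70 to 8.82 at ad libitum feeding in the high gain cows, and 7.23 to 7.62 and 6.82 to 8.09 in the low gain cows. At ad libitum feeding the cows with the highest muscle level were H3 and L2. The *CPT1B* signal of H3 was 6.72, exceeded only by 6.73 in H1 among the high gain cows. Centred, the value of H3 was the highest of its group, at -1.11 against -1.15 in H1. The signal of L2 was 7.15, exceeded only by that of L4 among the low gain cows. At restriction the cows with the highest muscle level were H6 and L4. The *CPT1B* signal of H6 was 7.89, at the middle of its group, and the 8.57 of L4 was level with L2 as the highest. The part of muscle in the *CPT1B* signal was not tested. On the deposited scale 1 of these markers fell among high gain and 2 among low gain cows, and none was called after centring. The 6 of 7 brown adipocyte markers measured had a mean of 7.40 to 7.63 and 7.62 to 8.03 in the high gain and 7.59 to 7.96 and 7.66 to 7.92 in the low gain cows, with 2 called higher and 1 lower in each group after centring.

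*SLC22A5* encodes OCTN2, the sodium-dependent carnitine transporter of the plasma membrane. At restriction its log2 signal was 7.61, 7.95 and 8.38 (lowest, median, highest) in the high gain and 7.56, 7.73 and 7.97 in the low gain cows. At ad libitum feeding it was 6.55, 6.67 and 7.20, and 6.64, 6.78 and 6.94. Every cow was lower at ad libitum feeding and the diets did not overlap in either group, with H2 the highest of the high gain cows under both diets. The level fell 2.30-fold in the high gain (log2 change -1.20, SE 0.10, adjusted p 0.000136) and 1.94-fold in the low gain cows (-0.96, SE 0.12, adjusted p 0.000375). Centred, the changes were -0.79 (adjusted p 0.000917) and -0.50 (adjusted p 0.0119). *SLC22A5* and *CPT1B* had mean signals of 7.31 and 7.43, below the median of 8.09 over cluster means. Among clusters below that median, 58.6% (high gain) and 64% (low gain) were called lower as deposited, and 16.6% and 16.5% after centring.

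*CROT* encodes the peroxisomal carnitine octanoyltransferase, which hands medium-chain products of peroxisomal oxidation to carnitine. Its log2 signal was 11.31, 12.05 and 12.37 (lowest, median, highest) at restriction and 10.92, 11.06 and 11.57 at ad libitum feeding in the high gain cows. Low gain cows had 11.44, 11.70 and 12.12, and 10.85, 11.05 and 11.62. All 12 cows were lower at ad libitum feeding, but the diets overlapped in both groups. The level fell in the high gain (log2 change -0.87, SE 0.12, adjusted p 0.000533) and low gain cows (-0.55, SE 0.14, adjusted p 0.00856). Centred, the change was -0.45 in the high gain cows (adjusted p 0.0203, 5 of 6 cows lower) and -0.10 in the low gain cows (adjusted p 0.64, 4 of 6 lower, not called). The centred call in the high gain cows was lost without H3, H4, H5 or H6 (adjusted p 0.0544 to 0.0602, changes -0.43 to -0.42) and without the cow as a block (adjusted p 0.069).

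*CPT2* encodes the inner-membrane enzyme. Its log2 signal in the high gain cows was 10.42, 11.25 and 11.52 (lowest, median, highest) at restriction and 11.73, 13.01 and 13.60 at ad libitum feeding, without overlap. Low gain cows had 11.20, 11.70 and 12.10, and 11.79, 12.66 and 13.39, with overlap. All 12 cows were higher at ad libitum feeding, although L1 and L3 moved by only 0.10 and 0.11. The level rose 3.27-fold in the high gain (log2 change 1.71, SE 0.19, adjusted p 0.000265) and 1.97-fold in the low gain cows (0.98, SE 0.25, adjusted p 0.00877). Centred, the changes were 2.12 (adjusted p 0.000146) and 1.43 (adjusted p 0.00337), with no overlap in either group.

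*CRAT* encodes carnitine acetyltransferase, which moves acetyl and other short-chain groups between coenzyme A and carnitine. In the high gain cows its log2 signal was 10.06, 10.74 and 11.31 (lowest, median, highest) at restriction and 11.06, 11.44 and 12.90 at ad libitum feeding. In the low gain cows it was 10.53, 10.87 and 11.87, and 10.77, 11.64 and 12.91. The diets overlapped in both groups, and the highest ad libitum values were those of H2 and L2. The level rose 1.90-fold in the high gain cows (log2 change 0.92, SE 0.22, adjusted p 0.00642, 5 of 6 cows higher). In the low gain cows the change was 0.65 (SE 0.25, adjusted p 0.0453, 4 of 6 cows higher), and this call was lost without L1, L2, L5 or L6 (0.44 and adjusted p 0.13 without L2) and in the fit without the cow as a block (adjusted p 0.0837). Centred, *CRAT* was higher in 6 of 6 cows of each group, by 1.34 (adjusted p 0.0022) and 1.10 (adjusted p 0.00935).

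**Figure D2:**
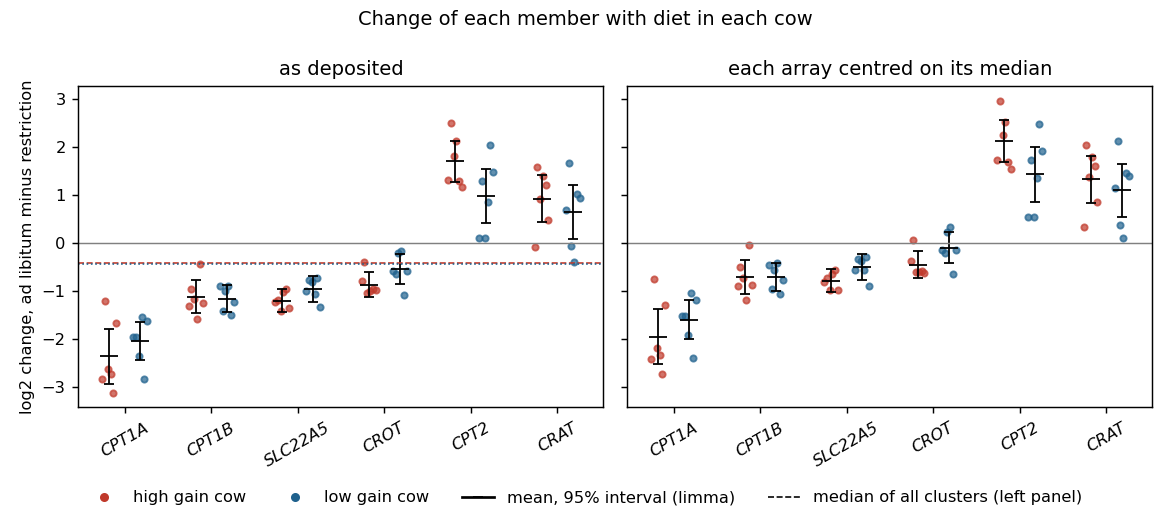
Log2 change from restriction to ad libitum feeding for each cow (points), with the mean and its 95% interval from limma, as deposited (left) and with each array centred on its median (right). Dashed and dotted lines at left mark the median change of all clusters (-0.42 high gain, -0.43 low gain), and after centring the interval of *CROT* in the low gain cows spans 0.

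The changes of 4 pairs of members were set against each other within each cow, which no scaling that adds a constant to an array can alter. The change of *CPT1A* minus that of *CPT2*, the outer and inner ends of the shuttle, was -4.08 ± 0.72 (SD, n = 6) for high gain and -3.03 ± 1.02 for low gain cows, and negative in all 12. The change of *SLC22A5* minus that of *CPT2* was also negative in all 12 cows, at -2.91 ± 0.54 and -1.94 ± 0.80. The exact two-sided permutation p was 0.0312 for each of these, the smallest that 6 cows allow, and 0.0535 after adjustment over the 12 tests of this family. The change of *CRAT* minus that of *CROT* was 1.79 ± 0.62 for high gain and 1.20 ± 1.04 for low gain cows (exact p 0.0312 and 0.0938, adjusted 0.0535 and 0.113). The change of *CPT1A* was below that of *CPT1B* in every cow, with differences of -1.25 ± 0.89 and -0.89 ± 0.42 (exact p 0.0312 for each, adjusted 0.0535). The other 4 tests compared these differences between the gain groups, high minus low gain. The result was -0.97 for *SLC22A5* minus *CPT2* (exact permutation p 0.039, adjusted 0.0585) and -1.05 for *CPT1A* minus *CPT2* (exact p 0.0736, adjusted 0.0981). It was 0.59 for *CRAT* minus *CROT* (exact p 0.253, adjusted 0.276) and -0.35 for *CPT1A* minus *CPT1B* (exact p 0.431, adjusted 0.431). None of the 12 tests passed after adjustment. Beside the other p values of the family, the floor of 0.0312 became 0.0535. A within-group difference at that floor therefore could not pass, whatever its size. Every pair except *CPT1A* and *CPT1B* set a member that fell as deposited against one that rose, so its differences restate changes given above.

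The members were next read beside other genes of the pathway. As deposited 7.36% (high gain) and 6.28% (low gain) of all clusters were called higher, and 53.1% and 54.3% lower. After centring 18.8% and 18.6% were called higher, and 16.5% and 13.1% lower. Of 7 measured genes of carnitine supply and other carnitine proteins, 1 rose and 4 fell in the high gain cows (median -0.32, against -0.42 over all clusters), and 1 rose and 5 fell in the low gain cows (median -0.49, against -0.43). After centring 2 rose and none fell in either group. *ALDH9A1*, an enzyme of carnitine synthesis, rose by 0.93 (adjusted p 0.00931) and 0.87 (adjusted p 0.00215). *SLC25A20*, the inner-membrane translocase that links *CPT1A* and *CPT2*, changed by -0.30 in the high gain (adjusted p 0.151) and -0.86 in the low gain cows (adjusted p 0.0062), but by 0.11 and -0.41 after centring (adjusted p 0.645 and 0.149). *BBOX1*, which completes carnitine synthesis, changed by -0.63 and -0.62 as deposited (adjusted p 0.00261 and 0.000952) and by -0.21 and -0.17 centred, with neither called. *TMLHE*, the first enzyme of that synthesis, was called only after centring, at 0.47 and 0.66. *CPT1C*, the brain isoform, and the transporters *SLC22A16* and *SLC6A14* were called lower as deposited in both groups and in neither after centring. The group means of *BBOX1*, *CPT1C*, *SLC22A16* and *SLC6A14* all lay below 8.09, the median over cluster means.

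Among 11 genes of malonyl-CoA metabolism and transcriptional control, 5 rose and 2 fell in the high gain and 3 rose and 2 fell in the low gain cows (medians -0.06 and 0.04), and after centring 6 and 8 rose and none fell. *ACACA*, the acetyl-CoA carboxylase that makes malonyl-CoA for fatty acid synthesis, had a log2 change of 4.24 (adjusted p 2.25e-05) and 3.10 (adjusted p 0.000222). *ACACB*, the isoform at the mitochondrial membrane, changed by -0.06 and -0.10 as deposited and by 0.36 and 0.35 centred, where it was called (adjusted p 0.0326 and 0.0269). Its group means, 5.87 to 6.02, lay below 8.09, the median over cluster means. *MLYCD*, which degrades malonyl-CoA, was called only in the low gain cows as deposited (-0.52, adjusted p 0.014). The nuclear receptors *PPARA* and *ESRRA* rose by 0.94 and 0.96 in the high gain and by 0.47 and 0.59 in the low gain cows. The coactivator *PPARGC1B* rose by 1.02 in the high gain cows and was not called in the low gain cows as deposited (0.62, adjusted p 0.0963), whereas *PPARGC1A* changed by -0.27 and -0.05 (neither called). Of the AMP-activated kinase subunits, *PRKAA1* fell in both groups (-0.51 and -0.66) and was not called after centring, and *PRKAA2* rose by 0.62 in the high gain cows. *FOXO1* fell by 1.07 in the high gain cows as deposited only, and *PPARD* was called only in the low gain cows after centring, at 0.49.

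Of the 5 long-chain acyl-CoA synthetases, which prepare the substrate of *CPT1A*, 3 rose and 1 fell in the high gain (median 1.48) and 4 rose and 1 fell in the low gain cows (median 0.92). *ACSL1* rose by 1.85 and 0.92. Of 15 genes of mitochondrial beta-oxidation, downstream of *CPT2*, 6 rose and 1 fell in each group, with medians of 0.47 and 0.29, and after centring 10 and 9 rose and none fell. *ETFA*, which accepts electrons from the acyl-CoA dehydrogenases, rose by 3.49 and 2.78, *DECR1* by 3.54 and 2.60, and *ECHS1* by 3.08 and 2.26. Other genes of the list did not rise in this way. Mean signals of *ACADL* were lower at ad libitum feeding, at 11.40 against 12.29 (high gain) and 11.92 against 12.67 (low gain). Those of *HADHA* were 13.35 against 13.45 and 13.67 under both diets. For *HADHB* they were 13.98 against 14.00 and 14.51 against 14.40, and for *ACADVL* 10.26 against 10.39 and 10.26 against 10.02. Of 8 measured peroxisomal genes 4 rose and 1 fell in the high gain and 3 rose and 2 fell in the low gain cows (medians 0.61 and 0.30), with *ACOX2* at 2.25 and 2.10. The last list held 10 measured target genes of the PPAR receptors that fasting induces. As deposited 2 rose and 7 fell in high gain and 1 rose and 6 fell in low gain cows (medians -0.68 and -0.81). Of all clusters, 53.1% and 54.3% were called lower on that scale. After centring 3 rose and 4 fell, and 2 rose and 4 fell. *PLIN2* and *PLIN5* had higher means at ad libitum feeding, *PLIN5* with 8.02 against 7.29 (high gain) and 8.08 against 7.35 (low gain). *FGF21*, *UCP3* and *CREB3L3* had lower means, all below 8.09, the median over cluster means. Brighter genes also had lower means. *PDK4* had 14.03 against 16.75 (high gain) and 14.80 against 17.17 (low gain). For *VNN1* the means were 9.44 against 10.80 and 9.01 against 10.22, and for *UCP2* 10.19 against 10.93 and 10.21 against 11.10. *FABP3* had 7.36 against 7.30 and 7.05 against 7.25. *ANGPTL4*, an inhibitor of lipoprotein lipase, fell in both groups (log2 changes -2.68 and -2.32).

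**Figure D3:**
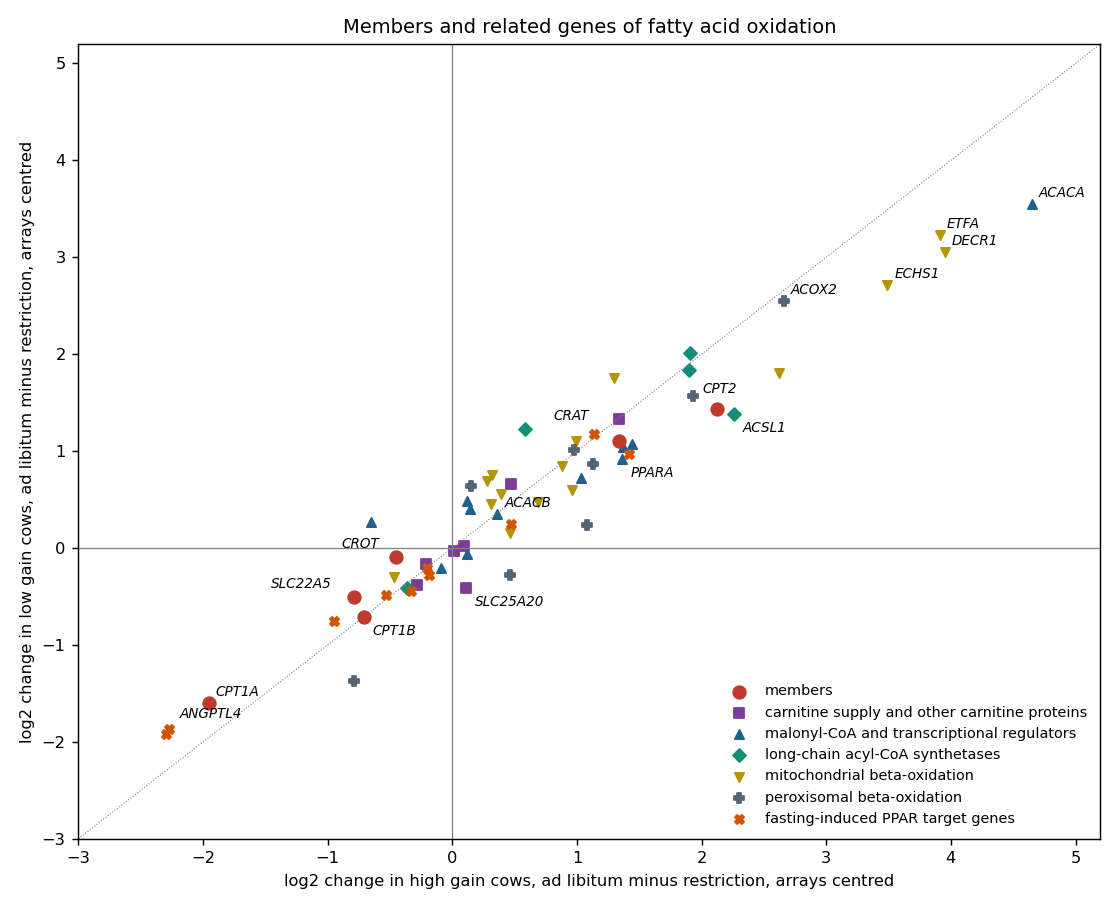
Log2 change from restriction to ad libitum feeding with arrays centred, in high gain cows (horizontal) and low gain cows (vertical), for the members and 6 lists of related genes; the dotted line marks equal change. *CPT2* (2.12, 1.43) and *CRAT* (1.34, 1.10) lie on the same side of 0 as *ETFA* and *ACACA*, and *CPT1A* (-1.95, -1.60) lies near *ANGPTL4* (-2.27, -1.87).

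Markers of other cell types were read in the same way, beside the 53.1% (high gain) and 54.3% (low gain) of all clusters called lower as deposited. The 8 fibroblast and progenitor markers had a mean log2 signal of 13.14 to 14.46 at restriction and 14.43 to 15.66 at ad libitum feeding in the high gain cows, and of 12.67 to 13.90 and 13.71 to 15.32 in the low gain cows, with 6 and 7 of 8 called higher as deposited and 7 and 7 after centring. Of the 8 endothelial markers 5 fell in the high gain cows, with means of 11.65 to 12.74 at restriction and 11.21 to 11.67 at ad libitum feeding, and 2 rose and 2 fell in the low gain cows. After centring 2 fell in the high gain cows, and 2 rose and 1 fell in the low gain cows. The 8 of 9 macrophage markers measured ranged from 9.34 to 10.33 and from 8.58 to 10.49 in the high gain and from 8.65 to 9.56 and from 8.27 to 9.07 in the low gain cows, with 3 of 8 lower in each group as deposited, and after centring none called in the high gain and 1 called higher in the low gain cows. For the 5 of 7 red blood cell markers measured the ranges were 7.59 to 8.25 and 7.28 to 7.90 (high gain), and 8.16 to 9.20 and 7.29 to 9.65 (low gain), with 1 higher and 3 lower, and 3 lower, as deposited, and after centring 1 higher and 1 lower, and none called. The part of these cells in the changes of the members was not tested, and in whole tissue fewer cells of a type and less RNA per cell cannot be told apart.

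High and low gain cows were then compared under each diet, the question the selection of the cows was made for. No member passed the adjusted threshold at restriction or at ad libitum feeding, where 0% of the 24997 clusters did so (limma, 0 calls each), although 9.17% and 7.11% had an unadjusted p under 0.05. The gain groups overlapped for every member under both diets, as they did for all but 0.504% and 0.38% of clusters. At restriction *CPT2* differed by -0.48 (high minus low gain, 95% interval -0.93 to -0.03, unadjusted p 0.0369, adjusted p 0.516, limma). *CPT1B* differed by -0.47 at restriction (unadjusted p 0.046, adjusted p 0.539, limma) and by -0.43 at ad libitum feeding (interval -0.74 to -0.12, unadjusted p 0.01, adjusted p 0.589, limma). Centred, its interval at restriction was -0.93 to 0.02 (unadjusted p 0.0572, limma). For *CPT1A* the difference was 0.39 at restriction (interval -0.18 to 0.95) and 0.07 at ad libitum feeding (interval -0.26 to 0.40). *CRAT*, *CROT* and *SLC22A5* differed by -0.28, 0.28 and 0.21 at restriction and by -0.01, -0.04 and -0.04 at ad libitum feeding. At restriction 8 of 8 macrophage, 8 of 8 fibroblast and progenitor and 7 of 8 endothelial markers were higher in the high gain cows. Of the muscle markers 6 of 11 were higher. Lower were 8 of 10 mature adipocyte, 4 of 6 brown adipocyte and 5 of 5 red blood cell markers. At ad libitum feeding 8 of 8 macrophage, 6 of 8 fibroblast and progenitor, 1 of 8 endothelial and 9 of 11 muscle markers were higher. So were 1 of 10 mature adipocyte, 4 of 6 brown adipocyte and 2 of 5 red blood cell markers. Of all 24997 clusters, 11541 were higher in the high gain cows at restriction and 13228 at ad libitum feeding. No marker was called under either diet, and the part of these cells in the member differences was not tested.

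The change with diet itself did not differ between the gain groups for any member past the threshold, as was so for all but 0.008% of clusters (9.39% had an unadjusted p under 0.05). The change of *CPT2* was higher in the high gain cows by 0.73 (95% interval -0.01 to 1.46, unadjusted p 0.0516, adjusted p 0.535, limma on 24 arrays) as a point estimate. For *CPT1A*, *CROT* and *SLC22A5* the change in the high gain minus that in the low gain cows was -0.32, -0.32 and -0.25 (adjusted p 0.803, 0.606 and 0.63). For *CPT1B* and *CRAT* the differences were 0.04 (interval -0.38 to 0.46) and 0.27 (interval -0.49 to 1.04).

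**Figure D4:**
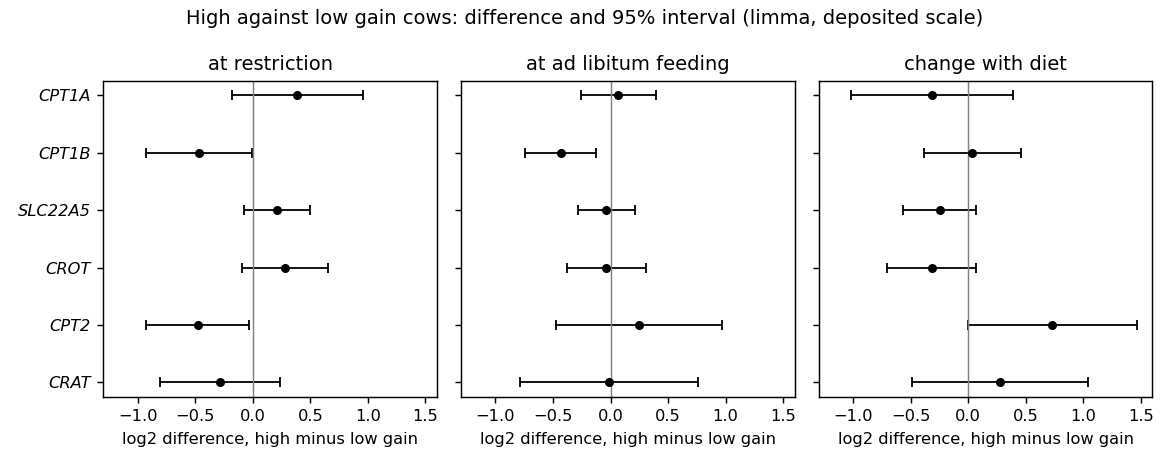
High minus low gain difference in log2 signal at restriction and at ad libitum feeding, and in the log2 change with diet, with 95% intervals from limma (deposited scale, 6 cows per group). The intervals of *CPT1B* under both diets and of *CPT2* at restriction exclude 0, but none of the differences passed adjustment over all clusters. With arrays centred (not shown) the interval of *CPT1B* at restriction spans 0 (-0.93 to 0.02).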

How the data were processed

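RNA of 24 adipose biopsies was measured on Bovine 1.1ST arrays. The authors converted the scans to log2 values with Affymetrix Expression Console (GC correction, signal space transformation, RMA) and deposited them. Versions, and whether the diets were normalized together, are not given in the sources used here. All sample columns were used. Of 26773 clusters, 1776 with identifiers below the first named one were left out.

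Diet was tested within each gain group (12 arrays) with the cow as a block, gain within each diet without one, and the difference of the diet changes on 24 arrays with the block, by limma 3.58.1 (lmFit, eBayes) in R 4.3.3, two-sided, with Benjamini-Hochberg adjustment over 24997 clusters at 0.05. The cow numbers in the titles pair the arrays. Changes of member pairs within cows were tested by exact permutation, with Benjamini-Hochberg adjustment over 12 tests. Deviations from group means correlated at a median of 0.148 (0.0291 to 0.339) within a cow and -0.0427 (-0.23 to 0.218) between cows of a gain group, so the ranges overlapped. Scripts were tested on simulated data.

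Members and lists were chosen with earlier results of these data known. All members were named, with every carnitine supply gene and malonyl-CoA regulator, up to 4 genes of each other list by smallest p in the high gain cows, and the 3 clusters nearest each member in profile. Further genes of some lists were named by their group means. Alternatives were centring, quantile and cyclic loess scaling, no block, other priors, filters and each cow left out. Centring with each cow left out was added after seeing the data.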

Additional observations from a re-analysis of the deposited data

Results flagged for a closer look

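1 value stood apart from its group. The log2 signal of *CPT1A* in L5 at restriction was 11.9, against 11.0 to 11.33 in the other 5 low gain cows, a gap of 0.64 of the group's range, past Dixon's critical value for 6 samples. Of the 36 groups examined, chance alone sets about 1 in 20 apart in this way. Without L5 the change of *CPT1A* in the low gain cows was -1.89 (adjusted p 0.00103, limma), against -2.05 with L5.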

How the results depend on the processing

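Counts of clusters moved with the scaling and with the filter on dim clusters. Clusters called in the high gain cows numbered 15100 (1839 higher, 13261 lower) as deposited, 8835 (4705, 4130) centred, 8630 (4210, 4420) by quantile, 8666 (4395, 4271) by cyclic loess and 7080 (1408, 5672) with dim clusters left out, and in the low gain cows 15133 (1569, 13564), 7930 (4645, 3285), 7372 (3662, 3710), 7573 (3902, 3671) and 6352 (1246, 5106). Without the replicate block but centred the counts were 8509 (4481, 4028) and 8153 (4643, 3510). With each cow left out they ran from 13294 to 14355 and from 13239 to 14408. Dim clusters left out removed *CPT1B* and *SLC22A5* from the test and left 3 of the other 4 called in the low gain cows.

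Of 130 member values with diet, 125 (high gain) and 112 (low gain) kept their direction and side of the threshold. *CROT* in the low gain cows lost its call under quantile (adjusted p 0.102) and loess (0.121) scaling and turned to 0.01 centred without L5 (-0.18 to 0.01 over cows left out). *CRAT* in the low gain cows lost its call with dim clusters left out (0.0574), with all clusters of the table (0.0517), in the unmoderated test without the block (0.138) and without the replicate block (0.0837), and ranged from 0.44 to 0.86 over cows left out. These 2 genes account for every member call lost in the low gain cows under the alternatives run, and the block changed no other member call on the deposited scale. In the high gain cows the centred call of *CROT* was lost without H3, H4, H5 or H6 (largest adjusted p 0.0602) and without the block (0.069).

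Clusters called between gain groups at restriction were 1 with all arrays in 1 fit, 2 with a trended and robust prior and 0 to 2 with a cow left out. At ad libitum feeding they were 2 with all arrays and 0 to 1. For the difference in change, 2 became 5 centred, 4 without dim clusters, 0 without the block (centred or not), 0 with other priors and 0 to 4. At ad libitum feeding *CRAT* turned to 0.02 (quantile) and 0.01 (loess), and ranged from -0.26 to 0.24 with a cow left out, *CROT* to 0.01 (quantile) and from -0.12 to 0.05, *SLC22A5* from -0.13 to 0.00 and *CPT1A* from -0.04 to 0.12. The difference in change of *CPT1B* was 0.00 centred, with or without the block, -0.02 by loess, and -0.10 to 0.13 with a cow left out (-0.14 to 0.10 centred, with -0.06 and -0.07 without L2 and L5). The cause was not tested. Each member had 1 cluster, so another choice of cluster gave the same value.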

Other observations

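For each member the clusters with the most similar profile over the 24 centred arrays were found by the root mean square difference in log2 signal, among clusters with at least 0.5 times the SD of the member. The nearest were *BHLHE23*, *RARRES2* and *KLF11* for *CPT1A* (0.42 each), and *NDUFS1* (0.31), *PDHA1* (0.32) and *ATP5F1E* (0.33) for *CPT2*. *NDUFS1* is a subunit of respiratory complex I, *PDHA1* of pyruvate dehydrogenase and *ATP5F1E* of ATP synthase. For *CRAT* they were *HSD17B10* (0.28), *MRPS25* (0.31) and *AGFG2* (0.33), of which *MRPS25* is a protein of the mitochondrial ribosome. For *CROT* they were *STXBP3* (0.23), *SLC44A1* (0.24) and *DHX40* (0.24), for *CPT1B* *NSMAF* (0.26), *LOC777692* (0.30) and *PRPF8* (0.30), and for *SLC22A5* *KCNE1* (0.18), *OR5H28* (0.18) and *TBX20* (0.19). Centred, the 3 nearest *SLC22A5* changed with diet by -0.59, -0.71 and -0.66 in the high gain cows (*SLC22A5* -0.79). In the low gain cows they changed by -0.54, -0.47 and -0.65 (*SLC22A5* -0.50). *CPT2* and *CRAT* differed from each other by 0.51, and *CPT1A* from *CPT2* by 1.91. These distances share the arrays and the diet contrast and are given as a description.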
